A study of Mus musculus with 2 samples.

Results

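Fibroblast growth factor (FGF) signalling was described in polyadenylated RNA of central nervous system tissue, taken from C57BL/6J mouse embryos aged 11.5 days, through 38 genes chosen by name. They comprise 13 secreted ligands, 4 intracellular FGF genes, 5 receptor genes, 12 feedback and target genes and 4 adaptor genes. Of these, 37 matched 1 row each among the 43346 Ensembl gene rows. Spry3, a Sprouty gene, matched no row by symbol and was not analysed here. The study holds 1 group of 2 libraries, labelled biological replicates 1 and 2, each made from littermates of both sexes with no treatment or engineered allele named in the labels. RNA longer than 200 nt was sequenced as paired reads with strand kept and spike-in RNA added. The labels give no dissection boundary and do not say whether the libraries came from separate litters, so an SD over n = 2 measures only the spread between these samples. With 1 group there is no comparison of conditions, no test was possible and no p-value is given.

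Secreted FGFs bind receptor tyrosine kinases on the cell surface together with heparan sulphate, and the activated receptor passes the signal through the adaptors Frs2 and Grb2 to Ras and the kinase ERK. The cascade switches on its own inhibitors, among them the Sprouty and Spred proteins and the ERK phosphatase Dusp6, as well as the ETS transcription factors Etv1, Etv4 and Etv5. In the embryonic brain FGF8 from the isthmus, the boundary of midbrain and hindbrain, organises the tissue on both sides, and FGFs from the anterior rim pattern the forebrain.

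The third immunoglobulin domain of receptors 1 to 3 decides which ligands they bind. It is encoded by 1 of 2 alternative exons, IIIb or IIIc. IIIb is the form typical of epithelia and in receptor 2 binds FGF7 and FGF10. IIIc, the form typical of mesenchyme and neural tissue, binds FGF8 and its relatives. Both exons of Fgfr3, the highest receptor gene here, are shown because the transcripts and junctions described below are told apart by this choice. Sequences are from GENCODE M21 transcripts, with mm10 positions, 5′ to 3′ on the gene's strand. Capitals mark the 81 aligned positions with the same base in both exons.

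Fgfr3 IIIb, chr5:33731281-33731431, plus strand: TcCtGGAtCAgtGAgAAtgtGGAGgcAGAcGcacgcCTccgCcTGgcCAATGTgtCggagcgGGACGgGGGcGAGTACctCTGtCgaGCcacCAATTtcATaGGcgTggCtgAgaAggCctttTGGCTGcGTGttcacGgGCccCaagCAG
Fgfr3 IIIc, chr5:33732117-33732261, plus strand: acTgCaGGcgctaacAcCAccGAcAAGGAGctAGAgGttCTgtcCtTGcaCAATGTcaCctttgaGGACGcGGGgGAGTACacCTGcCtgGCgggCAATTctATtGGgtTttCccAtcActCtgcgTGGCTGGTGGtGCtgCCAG

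The IIIb exon of Fgfr3 is 151 bases long and the IIIc exon 145, and they shared 53.6% of positions.

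The libraries held 126358805 and 111687579 expected counts, an estimate of the reads from each gene. They stood apart in marker genes of position along the body and of tissues beside the neural tube. The summed level of 6 caudal Hox genes was 2.98 TPM (transcript abundance corrected for length and scaled to a fixed total) in replicate 1 and 139 TPM in replicate 2, with all 6 higher there by 2-fold or more. Summed levels were also higher in replicate 2 for 4 skeletal muscle markers (103 and 429 TPM, 4 of 4 higher by that bound), 4 limb bud markers (9.62 and 46.3 TPM, 4 of 4) and 4 neural crest markers (30.6 and 52.2 TPM, 3 of 4). The 6 sclerotome and mesenchyme markers summed to 502 and 508 TPM, but Pax1 was at 0.63 and 15.8 TPM and Prrx1 at 13.6 and 54.1, while Col1a1 was at 146 and 92.3. Sums were lower in replicate 2 for 6 neural progenitor markers (747 and 341 TPM, 3 of 6 at least 2-fold lower), 5 forebrain markers (289 and 171 TPM, 4 of 5 lower) and 7 isthmus markers (88.7 and 50.2 TPM, 4 lower and 2 higher). Among the genes of all 13 marker lists only Msgn1, a tail bud gene, was at 0 TPM in a library. As for the labelled tissue, all 6 neural progenitor and all 5 young neuron genes reached 1 TPM in both libraries. The part of these differences in the FGF ratios below was not tested.

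**Figure D1:**
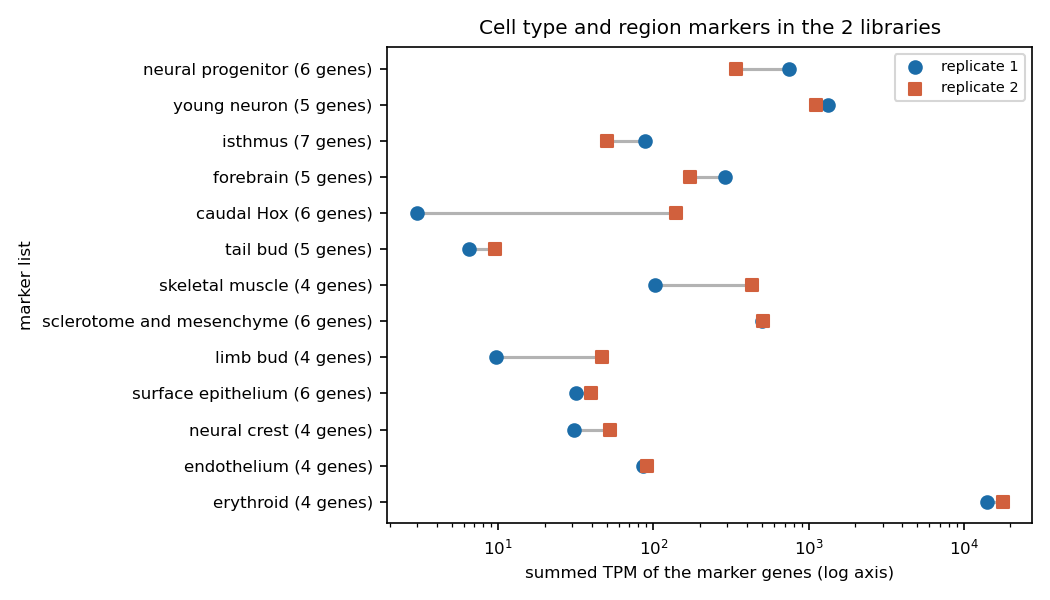
Summed TPM of each marker list (log axis) in replicate 1 (circles) and replicate 2 (squares). The caudal Hox list spans 2.98 to 139 TPM, while the endothelium list, at 85.6 and 91.2 TPM, lies close together in the 2 libraries.

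Of the 37 matched genes, 28 (75.7%) reached 1 TPM in both libraries, beside 60.8% of 21474 protein-coding genes. The receptors stood highest, with a median of 76.9 ± 7.53 TPM (SD of the 2 libraries' medians, n = 2). Over protein-coding transcripts only, the receptor median was 38.8 TPM. The adaptors followed at 19.6 ± 2.91, the feedback and target genes at 14.1 ± 5.54, the intracellular FGF genes at 3.38 ± 1.04 and the secreted ligands at 1.19 ± 0.615 TPM. All members of the adaptor list and all 11 matched feedback genes passed 1 TPM in both libraries, as against 6 of 13 secreted ligands, 3 of 4 intracellular genes and 4 of 5 receptors. TPM is a level per transcript length, to which short transcripts with few reads can add much, as described for the receptors below. In tissue RNA, fewer cells of a type and less RNA per cell cannot be told apart.

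**Figure D2:**
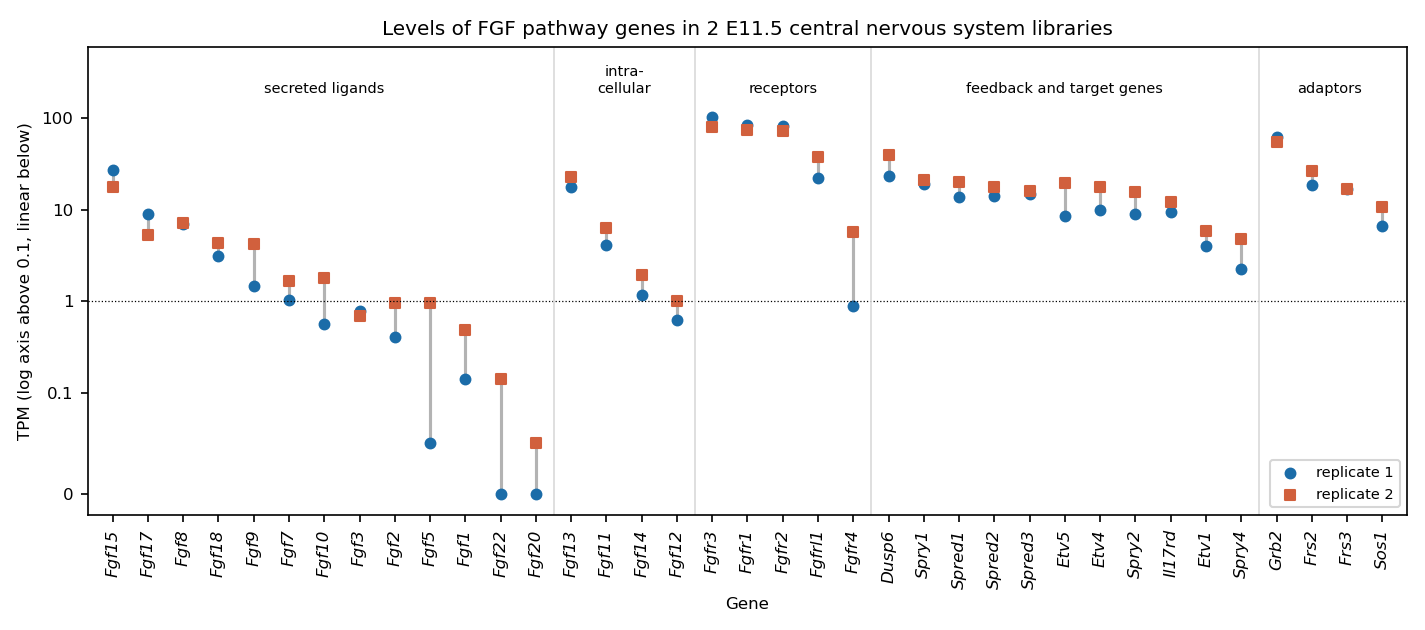
TPM of the 37 genes by role in replicate 1 (circles) and replicate 2 (squares), with the 1 TPM line dotted; the axis is logarithmic above 0.1 and linear below. Receptors 1 to 3 lie above 70 TPM in both libraries, while 7 of the 13 secreted ligands are below 1 TPM in at least 1 library.

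The highest secreted ligand was Fgf15, the mouse counterpart of human FGF19 and a known gene of the midbrain and diencephalon (chr7:144896531-144900953, mm10). Its level was 26.9 TPM in replicate 1 and 17.9 in replicate 2. Fgf17 (chr14:70636203-70642268), a relative of Fgf8 at the isthmus, was at 8.89 and 5.34 TPM. Both were lower in replicate 2, Fgf15 by a fold of 1.71 (95% counting interval 1.62 to 1.81) and Fgf17 by a fold of 1.90 (1.72 to 2.10). These intervals cover counting error only, as do all intervals below, because they come from the counts alone and leave out variation between embryos. Without molecular identifiers in the reads, the intervals may be too narrow even for that error. They compare the 2 libraries, not conditions. Fgf8 itself was level at 6.97 and 7.21 TPM, although its counts, scaled to library size, gave a log2 ratio of -0.28 for replicate 2 over replicate 1. Fgf18, from the same subfamily, was at 3.09 and 4.32 TPM. In the order of means Fgf15 (22.4 ± 6.36 TPM) stood clear of the other ligands, while Fgf17 (7.12 ± 2.51) and Fgf8 (7.09 ± 0.170) did not differ beyond their spread. Of the 7 isthmus markers, 4 were at least 2-fold lower in replicate 2, among them En2 at 45.0 and 14.3 TPM and Wnt1 at 6.96 and 2.91. Another 2 were at least 2-fold higher, Pax2 at 1.61 and 5.96 TPM and Pax8 at 1.17 and 5.12. Gbx2 was at 6.15 and 9.3 TPM. The part of isthmus tissue in the Fgf15 and Fgf17 values was not tested.

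Fgf1, Fgf5, Fgf7, Fgf9 and Fgf10 were each 2-fold or more higher in replicate 2 under the main scaling. Fgf9, a signal between mesenchyme and epithelium (chr14:58070547-58112720), was at 1.45 and 4.25 TPM, a fold of 2.80 (2.39 to 3.29). Fgf10, the limb and lung bud ligand of the IIIb form of Fgfr2 (chr13:118669791-118792115), was at 0.56 and 1.81 TPM, a fold of 2.86 (2.42 to 3.40). Fgf5, known for ending the growth phase of hair (chr5:98254184-98277030), had 10 counts in replicate 1 and 161 in replicate 2, or 0.05 and 0.95 TPM. Its fold of 16.6 (8.79 to 35.3) was the largest of the members, from a level near 0 in replicate 1. Fgf1, which lacks a signal peptide, was at 0.14 and 0.48 TPM, a fold of 2.49 (1.75 to 3.59). Fgf7, also a ligand of the IIIb form of Fgfr2, was at 1.04 and 1.66 TPM, a fold of 2.02 (1.56 to 2.62). Much of the Fgf7 level came from a transcript outside its protein-coding models, whose sum was 0.25 and 0.91 TPM.

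The remaining ligands were below 1 TPM in both libraries. Fgf3, a signal of hindbrain and inner ear, was at 0.79 and 0.69 TPM, from 90 and 72 counts. Fgf2, which shares exon bases with an unnamed gene on the same strand, had 22 and 41 counts, or 0.41 and 0.95 TPM. Fgf20 and Fgf22 had 0 counts in replicate 1, which allows up to 3, and 5 and 3 counts in replicate 2 (0.05 and 0.14 TPM). No fold is given for the last 3 genes, which had fewer than 100 counts over both libraries.

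The intracellular FGF genes encode proteins that stay in the cell and bind sodium channels and microtubules rather than FGF receptors. Fgf13, which binds microtubules in young neurons, was by far the highest at 17.6 and 23.0 TPM, a fold of 1.29 (1.21 to 1.36). Fgf11 followed at 4.11 and 6.30 TPM, Fgf14 at 1.17 and 1.93, and Fgf12 at 0.63 and 1.00. All 4 were higher in replicate 2 under each of the 5 scalings tried, none by 2-fold. The main scaling put 50.3% of all genes tested above 0, total count 59.1% and log2(TPM + 1) 60.5%. Scalings of the counts shift all genes by nearly the same amount, so their agreement adds little. The 5 young neuron markers summed to 1324 and 1112 TPM, with Dcx higher in replicate 2 (48.2 and 57.9) and the others lower.

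The libraries differed more in the first exon of Fgf13 than in its total. Transcript ENSMUST00000033473.7, called nearer here, starts from an exon of 560 bases (chrX:59133877-59134436, mm10), and ENSMUST00000119306.1, called farther, from one of 152 bases farther upstream (chrX:59166013-59166164). Both join the same second exon (chrX:59131840-59131950). The nearer transcript was at 9.19 TPM in replicate 1 and 5.79 in replicate 2, with 1824 and 980 expected counts. The farther one was at 0.28 and 10.6 TPM, with 46.6 and 1482 expected counts, or 1.59% and 46.2% of the gene's TPM. Junction reads in a list on the older build mm9 show a contrast of the same kind without transcript models. That list holds a first and a second count for each junction, which no label ties to replicate 1 or 2. Reads from the nearer first exon into the shared exon numbered 54 and 52, and those from the farther first exon numbered 4 and 93. The farther exon thus held 6.90% (Wilson 95% interval 2.71 to 16.4) of the pair's reads in the first count and 64.1% (56.1 to 71.5) in the second. Of all junction reads into the shared exon it held 5.56% (4 of 72) and 43.7% (93 of 213).

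Fgf8 had a steady TPM, though not steady scaled counts, and differed between the libraries in its form. An exon of Fgf8 begins at either of 2 sites, and the longer form adds 33 bases, the difference between the weaker Fgf8a and the stronger Fgf8b type of ligand. The first 60 bases of the longer exon are shown, with the added bases in capitals.

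Fgf8, chr19:45741620-45741679, minus strand: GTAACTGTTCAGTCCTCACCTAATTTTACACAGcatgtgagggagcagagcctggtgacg

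Transcripts with the longer exon made up 41.8% of the TPM of both forms in replicate 1 and 69.3% in replicate 2. Junction reads gave 43.0% (33.4 to 53.2) in the first count, from 40 of 93 reads, and 66.7% (55.2 to 76.5) in the second, from 48 of 72. The counting intervals of the 2 counts do not overlap, but they leave out variation between embryos.

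**Figure D3:**
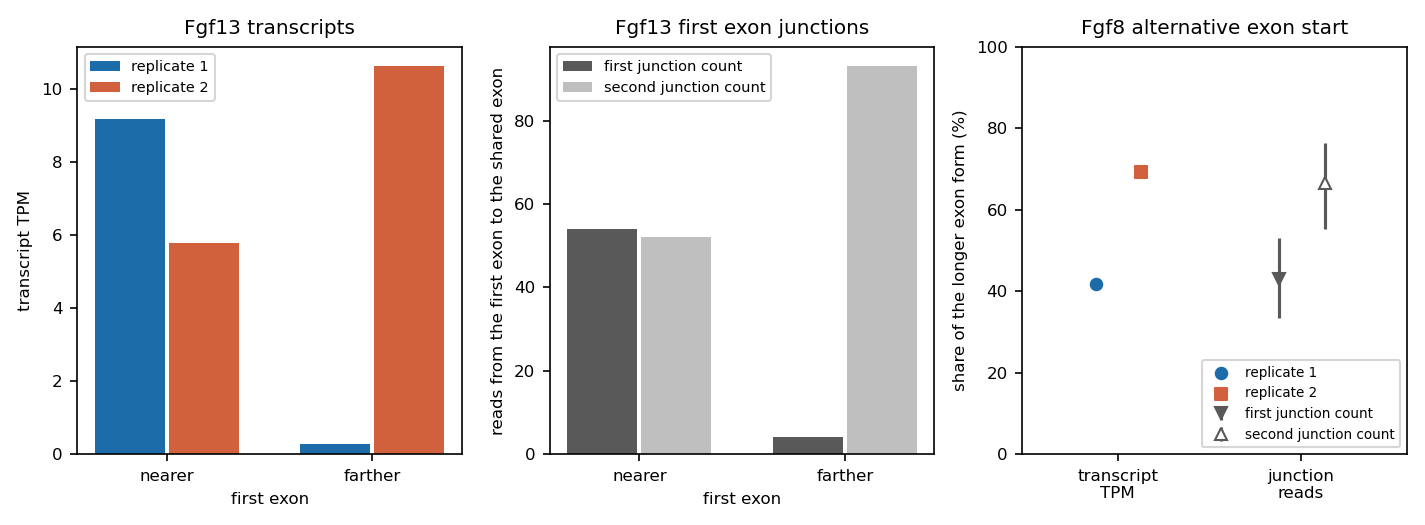
TPM of the Fgf13 transcripts with the nearer and the farther first exon in each library (left), mm9 junction reads from their first exons (middle), and the share of the longer Fgf8 exon form in percent (right), with Wilson 95% intervals for junction reads. The farther Fgf13 transcript is at 0.28 TPM in replicate 1 and 10.6 in replicate 2, and the longer Fgf8 form at 41.8% and 69.3%.

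Fgfr3 was the highest receptor gene at 103 and 79.6 TPM (91.4 ± 16.7), followed by Fgfr1 at 84.8 and 73.6 (79.2 ± 7.91) and Fgfr2 at 82.3 and 71.6 (76.9 ± 7.53). These 3 kinase receptors did not differ from their neighbours beyond their spread, and each lay above 90.8% or more of protein-coding genes. Fgfr3, a receptor of ventricular zone progenitors, was lower in replicate 2 by a fold of 1.66 (1.62 to 1.69) in scaled counts. The size depends on the measure, with a log2 ratio of -0.73 by scaled counts and -0.37 by log2(TPM + 1). Neural progenitor markers summed to 747 and 341 TPM, and their part in the Fgfr3 difference was not tested. Fgfrl1, which lacks the kinase domain and can bind FGFs without passing the signal on, was at 22.4 and 38.1 TPM. Fgfr4, a receptor of developing skeletal muscle (chr13:55152640-55168759), was at 0.88 and 5.73 TPM, and its fold of 4.97 (4.26 to 5.82) higher in replicate 2 was the largest outside the ligands. In the same libraries Myod1, the muscle determination factor, was at 0.15 and 19.4 TPM, and Myog at 0.40 and 34.2. The part of muscle RNA in the Fgfr4 value was not tested.

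The gene TPM of the receptors includes short transcripts that retain introns. Such models held 48.6% and 27.9% of Fgfr1 TPM but 27.7% and 20.6% of its counts. For Fgfr2 they held 50.0% and 40.1% of TPM, against 10.8% and 10.7% of counts. For Fgfr3 they held 36.0% and 46.7% of TPM, against 19.0% and 23.4% of counts. Summed over protein-coding transcripts only, Fgfr1 was at 42.6 and 48.6 TPM, Fgfr2 at 38.7 and 38.8, and Fgfr3 at 66.1 and 42.4. Fgfr1 was thus higher in replicate 1 by gene TPM and higher in replicate 2 by its coding transcripts, while Fgfr3 kept its direction. The order of the means, Fgfr3, Fgfr1 and Fgfr2, was the same both ways. By coding transcripts, however, Fgfr1 lay above Fgfr3 in replicate 2. One Fgfr2 gene model shares exon bases with Ctbp2 on the same strand.

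In Fgfr1, Fgfr2 and Fgfr3 no single transcript held most of the TPM. The most abundant by mean TPM took 28.0% and 38.3% of Fgfr1 (ENSMUST00000117179.4), 18.5% and 27.6% of Fgfr2 (ENSMUST00000124096.3), and 32.3% and 25.0% of Fgfr3 (ENSMUST00000067150.9). All 3 are protein-coding. The same transcript led in both libraries for Fgfr1 and Fgfr3 but not for Fgfr2, where a retained-intron model of 335 bases, ENSMUST00000147859.1, led replicate 1 with 24.6 TPM from 333 counts and was at 5.98 TPM from 63.7 counts in replicate 2. Among the 20 members that reached 1 TPM in both libraries and have several transcripts, 12 had the same leading transcript in both. The same count was not made over all genes, so nothing is read from it.

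Receptors 1 to 3 were, where the form could be told, mainly IIIc, whose exon in Fgfr3 is the second shown above. Of the TPM of transcripts with either exon, IIIc made up 99.7% and 99.7% for Fgfr1, 82.8% and 81.8% for Fgfr2, and 99.7% and 93.2% for Fgfr3. Transcripts counted as neither form held 49.7% and 34.3% of the TPM of Fgfr1, 71.4% and 73.4% of that of Fgfr2, and 30.2% and 41.4% of that of Fgfr3. For Fgfr2 they include its leading coding transcript, at 15.2 and 19.8 TPM, so its share rests on 19.5 and 15.6 TPM of IIIc transcripts. IIIb transcripts of Fgfr2, the receptor form that answers Fgf7 and Fgf10, were at 4.03 and 3.47 TPM. Those of Fgfr3 were at 0.23 and 3.17 TPM, from 75.6 and 891 expected counts, beside 71.8 and 43.5 TPM of IIIc transcripts. For Fgfr1 they were at 0.14 and 0.13 TPM. A decay transcript of Fgfr1 that carries both exons was counted as neither.

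Junction reads also had IIIc in the majority on both sides of the exon, with IIIb shares that differed from the transcript values. At the upstream side of the exon, IIIb took 1 of 787 reads for Fgfr1 in the first count and 15 of 673 in the second, or 0.13% (0.02 to 0.72) and 2.23% (1.36 to 3.64). For Fgfr2 it took 17 of 311 and 28 of 258 reads, or 5.47% (3.44 to 8.58) and 10.9% (7.62 to 15.2). For Fgfr3 it took 8 of 248 and 34 of 477 reads, or 3.23% (1.64 to 6.24) and 7.13% (5.15 to 9.80). Downstream, IIIb took 6 of 230 and 19 of 165 reads of Fgfr2, or 2.61% (1.20 to 5.57) and 11.5% (7.50 to 17.3). The downstream share was 0.47% (0.25 to 0.89) and 0.61% (0.21 to 1.77) for Fgfr3, and for Fgfr1 0 of 500 reads, which allows up to 0.60%, and 1 of 533. The Fgfr3 shares of the 2 sides differ, and its upstream reads rest on 248 in the first count against 1923 downstream. Other Fgfr3 reads skipped both exons (25 and 9) or joined IIIb to IIIc (6 and 11), and the shares leave them out. Exon RPKM on mm9 (reads scaled by exon length and depth) had a first and a second value likewise tied to no replicate. IIIb was at 0.20 and 0.72 beside IIIc at 1.94 and 1.59 for Fgfr2. It was at 0.03 and 0.09 beside 7.82 and 5.50 for Fgfr3, and at 0.05 and 0.16 beside 5.66 and 6.30 for Fgfr1. The measures thus differ in the size of the IIIb part. Epithelial cells make IIIb through the splicing factors Esrp1 and Esrp2. Their markers summed to 31.8 and 39.8 TPM over 6 genes, with Esrp1 at 2.06 and 3.30 and Esrp2 at 1.11 and 2.31. Their part in the IIIb shares was not tested.

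**Figure D4:**
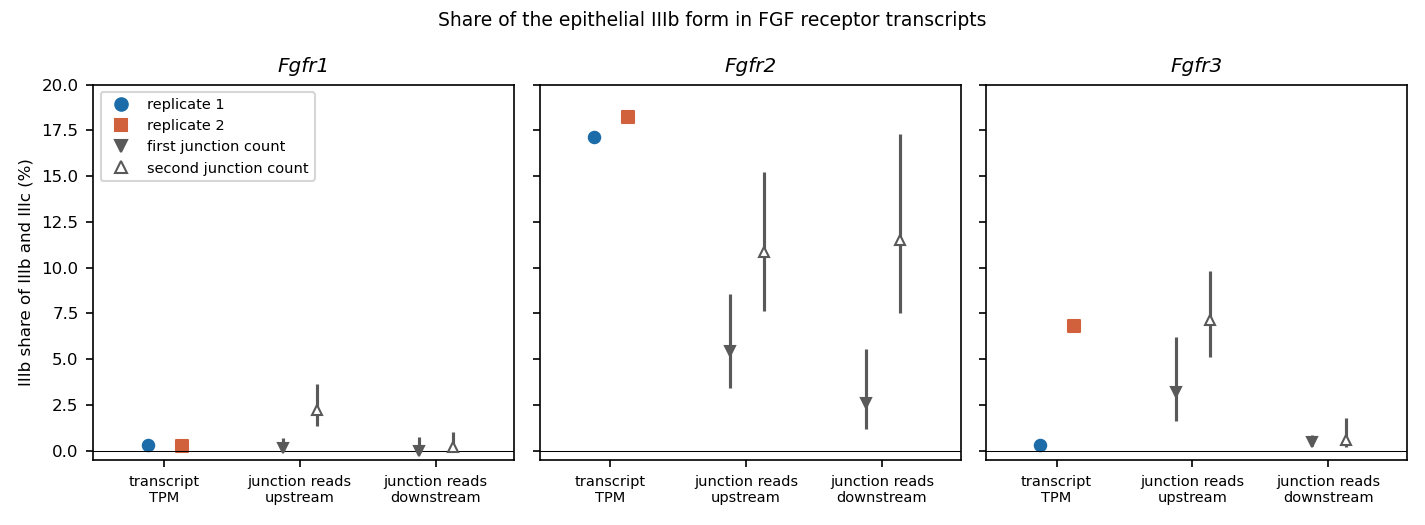
IIIb share in percent of IIIb and IIIc for each receptor, from transcript TPM in replicates 1 and 2 and from mm9 junction reads upstream and downstream of the exon (first and second count, Wilson 95% intervals). Fgfr2 is the only 1 of the 3 with a transcript share above 10% in both libraries, at 17.2% and 18.2%.

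A second choice in Fgfr1 and Fgfr2 lies at the end of the exon that follows, where 2 splice sites 6 bases apart include or leave out a valine and a threonine in the part of the receptor that binds Frs2. The last 30 bases of the longer exon, of 203 bases as against 197, are shown with the optional bases in capitals. The letters GTAACA are the same in both genes.

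Fgfr1, chr8:25566884-25566913, plus strand: aagagcatccctctgcgcagacagGTAACA
Fgfr2, chr7:130196172-130196201, minus strand: aagcgcatccccctgcggagacagGTAACA

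The longer form prevailed in both. Junction reads put it at 88.6% (83.3 to 92.3) and 81.9% (77.4 to 85.7) of Fgfr1, from 193 and 332 reads, and at 88.2% (84.8 to 91.0) and 86.6% (81.8 to 90.3) of Fgfr2, from 417 and 246 reads. Transcript TPM put it at 98.8% and 95.4% of Fgfr1 and 62.0% and 57.7% of Fgfr2. The junction list places the longer Fgfr2 junction 1 base away from the annotated exon edges on both sides, and those reads were counted as the longer form.

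Dusp6 led the feedback and target genes (chr10:99263231-99267489), at 23.5 and 39.7 TPM, a fold of 1.49 (1.43 to 1.54) higher in replicate 2. The ETS factors were all higher in replicate 2: Etv5 (chr16:22381309-22439719) was at 8.57 and 19.7 TPM, Etv4 at 9.96 and 17.8 and Etv1 at 4.05 and 5.92. The fold of Etv5 was 2.01 (1.92 to 2.11). Coding transcripts made up less than the whole of Etv4, at 4.34 and 9.91 TPM. Among the Sprouty genes, Spry1 was steady at 18.9 and 21.2 TPM, Spry2 was at 8.96 and 15.6, and Spry4 at 2.23 and 4.82. The Spred genes, relatives that hold back Raf, lay close to one another. Spred1 was at 13.9 and 20.3 TPM, Spred2 at 14.3 and 17.9, and Spred3 at 14.7 and 16.0. Il17rd, known as Sef and an inhibitor of the same cascade, was at 9.34 and 12.1 TPM. By scaled counts 9 of these 11 genes were higher in replicate 2, with Spry1 and Spred3 just below 0, beside 50.3% of all genes tested. By total count or by log2(TPM + 1) all 11 were, on scales that put 59.1% and 60.5% of all genes above 0.

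The adaptor Grb2, which links receptors to the Ras activator Sos1, was at 61.7 and 55.6 TPM (chr11:115644045-115708597), a fold of 1.19 (1.16 to 1.22) lower in replicate 2. Frs2, the docking protein of the receptors, was at 18.5 and 26.6 TPM. Frs3, its relative, was at 16.7 and 16.8 TPM, of which coding transcripts held 10.3 and 11.9. It shares exon bases with Tomm6os on the same strand. Sos1 was at 6.55 and 10.8 TPM.

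Ratios were taken for the 34 members with 100 counts or more, a filter on the sum over both libraries. Of these, 7 (20.6%) passed 2-fold in favour of replicate 2, beside 6.51% of 16511 genes with the same minimum. The minimum is on the sum of both libraries, so nothing is read from that share. Fgf5 with 10 and 161 counts, Fgf1 with 46 and 111 and Fgf7 with 91 and 178 met it only with replicate 2. Among genes with 1000 counts or more, 2 of 24 members (8.33%) were 2-fold higher, beside 3.38% of 12351 genes. These were Etv5, close to the bound, and Fgfr4, which met that minimum mainly through replicate 2 with 199 and 960 counts. Nothing is read from this share either. None of the 34 was 2-fold lower, beside 4.95%. The 7 were Fgf1, Fgf5, Fgf7, Fgf9, Fgf10, Fgfr4 and Etv5. Fgf7 and Etv5 lay just inside the bound of 1 on the log2 scale, both at 1.01, and just outside it with DESeq2 size factors, at 0.97 and 0.98, which left 5, beside 6.09% of all genes. TMM over all Ensembl rows also left 5, beside 6.34%, and log2(TPM + 1) left 3, beside 4.17%. At 1.5-fold, 12 members were higher in replicate 2, beside 15.2% of all genes, and 3 were lower, beside 13.7%. Just outside 2-fold under the main scaling were Spry4 at 0.93 and Fgf17 at -0.93. The counting intervals of Fgf1, Fgf7 and Etv5 include a fold of 2. The median log2 ratio of the members was 0.45, and 23 of 34 were above 0, beside a median of 0.00 and 50.3% above 0 over all genes tested. Sign depended on the scaling for 5 members, Fgf8, Frs3, Fgfr2, Spry1 and Spred3. On the log2(TPM + 1) scale and by total count the median of all genes itself was 0.12, so those scales carry a shift upward of that size.

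**Figure D5:**
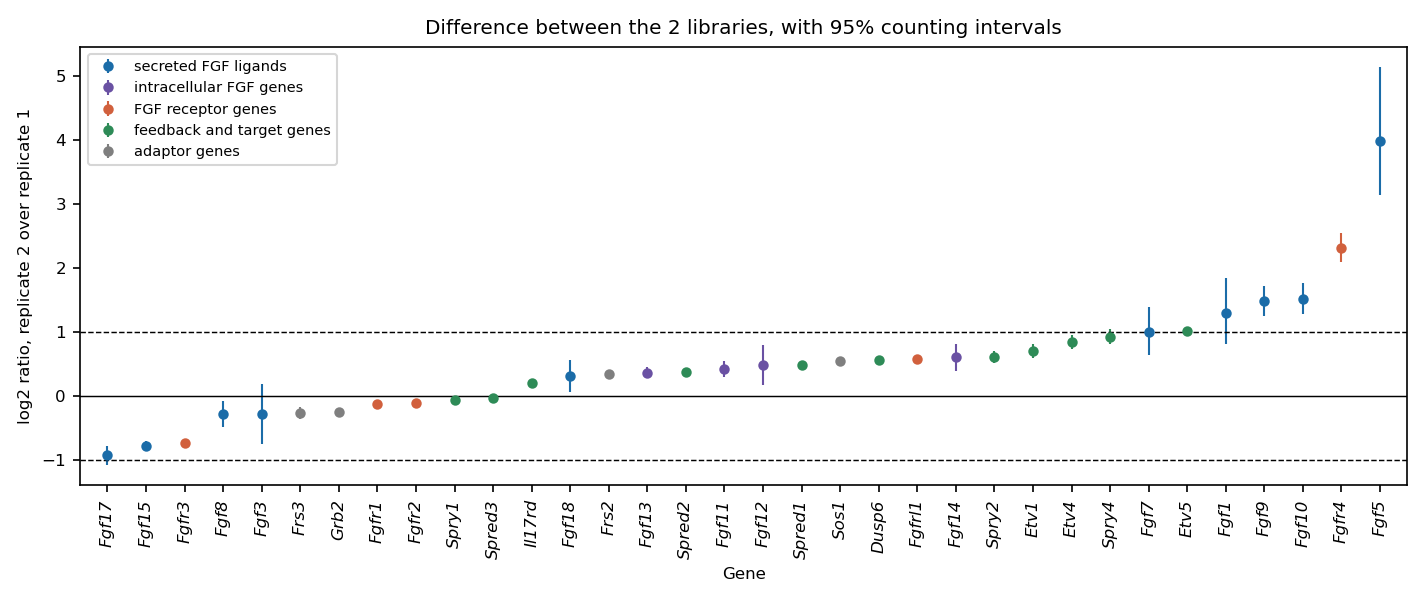
Log2 ratio of replicate 2 over replicate 1 for the 34 members with at least 100 counts, with 95% counting intervals; dashed lines mark 2-fold. Fgf5 and Fgfr4 lie farthest above 0 and Fgf17, Fgf15 and Fgfr3 farthest below, at -0.93, -0.78 and -0.73.

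The mm9 gene table comes from the same series, so it is no independent support. Its first and second values are likewise not tied to a replicate. Differences are given for the members past 2-fold above. Fgf5 differed by 12.7-fold between its 2 values, Fgfr4 by 5.35-fold, Fgf10 by 3.45-fold, Fgf1 by 2.75-fold, Etv5 by 2.41-fold and Fgf9 by 2.33-fold. Fgf7 differed by 1.68-fold, below the bound, while Spry4, which was not past 2-fold above, differed by 2.01-fold. Because the columns are unlinked, they give the size of a difference and no direction.

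The wider pathway was broadly present. None of 5 further ligands, Fgf4, Fgf6, Fgf16, Fgf21 and Fgf23, reached 1 TPM in both libraries, and the highest, Fgf23, was at 0.29 and 0.26 TPM. Of 16 coreceptor and heparan sulphate genes, 13 reached 1 TPM. The highest was Sulf2, which removes sulphate from heparan chains, at 83.7 and 163 TPM, and the lowest Kl, the Klotho coreceptor of hormone-like FGFs, at 0.18 and 0.13. Cnpy1, of the canopy family, was the 1 gene of 15 in this list at least 2-fold apart, at 147 and 61.7 TPM, a fold of 2.52 lower in replicate 2. All 21 genes of the Ras and ERK cascade reached 1 TPM and none was 2-fold apart, from Map2k2, the kinase above ERK, at 147 and 144 TPM down to the adaptor Shc3 at 5.32 and 3.45. Of 9 further phosphatases and targets, 7 reached 1 TPM. Ccnd1, a cyclin of the start of the cell cycle, was highest at 166 and 124 TPM and Fos lowest at 1.48 and 0.63. Egr1, an early response gene of ERK, was at 0.79 and 2.17 TPM, a fold of 2.42 higher in replicate 2.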

How the data were processed

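RNA of 1 group of 2 libraries was measured. The authors deposited an expected count and TPM per gene and transcript on mm10, annotation M4, per the file headers and notes. The aligner and quantifier were not given in the sources used here. Per the file headers, the authors also deposited mm9 gene and exon tables with 2 RPKM values each (Ensembl 65) and read counts over 1270088 mm9 junctions, none linked to a sample. Expected counts were rounded. Rows outside Ensembl genes held 4.67% and 3.30% of counts and were left out. Mitochondrial genes held 1.35% and 6.78% of TPM. Symbols, positions and exon sequences came from GENCODE M21, which matched 42462 rows. Scaling used TMM (edgeR 4.0.16) over genes passing filterByExpr. DESeq2 1.42.0 size factors, total count, log2(TPM + 1) and TMM over all rows were alternatives. Log2 ratios had a prior count of 0.5 and needed 100 counts over both libraries. Folds have exact binomial and read shares Wilson 95% intervals (scipy 1.17.1). The ratio step was tested on simulated data. IIIb and IIIc are the exons that replace each other between the same neighbours in the annotation. The rule named every member with its TPM, gave folds for those 2-fold apart and the highest of each role, and named the highest, lowest and 2-fold genes of other lists. The folds of Fgf17 and Fgfr3, the single marker genes and the Fgf8, Fgf13 and 6-base splice forms were chosen after values were seen. The members and all lists were chosen with earlier results of these data known. The sequences of the alternative exons of Fgfr1 and Fgfr2 are not reported here.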

Additional observations from a re-analysis of the deposited data

How the results depend on the processing

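Leaving out a library gives no ratio, so ratios and 2-fold counts have no such value, and no paired analysis was possible because there is only 1 group. With 1 library left out, list medians ranged from 0.79 to 1.66 TPM (secreted ligands), 2.64 to 4.12 (intracellular genes), 71.6 to 82.3 (receptors), 9.96 to 17.8 (feedback genes) and 17.6 to 21.7 (adaptors), and members at 1 TPM from 28 to 31. Turning the mean of log2(TPM + 1) back into TPM gave 1.87 for secreted ligands and 36.9 for receptors. The receptor median was 85.2 over nuclear Ensembl genes and, chosen after seeing the data, 38.8 over protein-coding transcripts. On mm9, 17 members had both RPKM values at 1 or more, a unit not comparable with TPM. The count at least 2-fold higher was 3 by log2(TPM + 1) (beside 4.17% of all genes), 2 with at least 1000 expected counts (3.38%), 12 at 1.5-fold (15.2%) and 5 with DESeq2 (6.09%) or, chosen after seeing the data, TMM over all rows (6.34%). The count lower was 3 at 1.5-fold (13.7%). The median log2 ratio was 0.57 by total count. The IIIc share was 99.8% (Fgfr1) and 87.5% (Fgfr2) by expected counts and 99.3% and 92.3% by junction reads; the leading Fgfr3 transcript took 40.8% by expected counts. With 1 library left out IIIc shares ranged from 99.67 to 99.73% (Fgfr1), 81.8 to 82.8% (Fgfr2) and 93.2 to 99.7% (Fgfr3). The cause of these moves was not tested. Fewer genes entered the count at a minimum of 1000 than at 100. No ratio past 2-fold changed sign, but 5 nearer 0 did between scalings, and the TPM of Fgfr1 was lower in replicate 2 by gene but higher by coding transcripts. Depth limits Fgf2, Fgf20 and Fgf22.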
